A study of Mus musculus with 3 samples.

Results

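The genes examined here are Phc1, Jarid2 and Rybp, which encode parts of the Polycomb machinery, and the data are the sites at which the protein Tex10 was recovered around them in mouse embryonic stem (ES) cells. Members were the peaks of the deposited Flag-Tex10 list that overlapped, by at least 1 base, a fixed mm9 window around each gene: chromosome 6, 122215000 to 122340000, for Phc1 (125 kb), chromosome 13, 44775000 to 45070000, for Jarid2 (295 kb), and chromosome 6, 100125000 to 100290000, for Rybp (165 kb). Of the 5189 peaks in the list, 13 were members: 3 in the Phc1 window, 7 in the Jarid2 window and 3 in the Rybp window. The windows were given by position and not by score, but they were proposed when results of these data were already known.

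The cells were J1 ES cells (129SV strain), cultured on gelatin with serum and leukemia inhibitory factor. They carried a 3xFlag-Tex10 transgene, delivered in a piggyBac transposon vector, and are named T10F10 in the labels. All 3 libraries of the series came from this line: a ChIP with the Flag antibody, a control ChIP with normal mouse IgG, and input DNA. ChIP-seq (chromatin immunoprecipitation and sequencing) recovers DNA bound by, or lying near, a protein. Tex10 was therefore mapped through a tagged, ectopically expressed copy, and no line without the transgene was used here. Each group had 1 library and only the Flag library's peaks were analysed here, so there was no replicate error and no test was made; all differences are descriptions of 1 peak list of unknown depth.

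Polycomb proteins keep developmental genes silent by modifying histones. Polycomb repressive complex 1 (PRC1) ubiquitinates histone H2A, and PRC2 methylates lysine 27 of histone H3. Phc1 is a polyhomeotic subunit of canonical PRC1 and helps to compact its target chromatin. Rybp belongs to the variant forms of PRC1, where it takes the place of the chromobox subunits. Jarid2 is an accessory subunit of PRC2 that helps it to bind chromatin. In ES cells both complexes hold lineage genes in a repressed state, and Jarid2 is known to be needed for proper differentiation. By its title, the study concerned Tex10 and super-enhancers, the clusters of enhancers found beside genes of cell identity.

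The 3 windows differed in the number, scores or spacing of their listed Flag-Tex10 peaks. Phc1 had 3 peaks, 2 of them strong. Jarid2 had 7 peaks, 1 of them strong. Of these 7, 5 lay in 1 stretch when peaks less than 12500 bp apart were joined. Rybp had 3 separate peaks of ordinary strength. The windows differ in length, and per Mb the Phc1 window held 24.0 peaks, the Jarid2 window 23.7 and the Rybp window 18.2. The number that the authors deposited with each peak is called the score here. Its scale was not given, so it was used mainly to rank and filter peaks within the list. In an alternative setting it was also multiplied by peak width, which does depend on the scale. Strong and strength refer here to a high score only. Whether the score measures enrichment or statistical significance is unknown and was not tested. Scores of the 13 members ran from 2.76 to 26.8 with a median of 5.84, against a median of 5.22 and quartiles of 3.75 and 7.73 over all 5189 peaks. At least the median score of the list was reached by 10 of the 13 (76.9%, against 49.9% of the autosomal peaks). A score of at least 10 was reached by 3 of the 13 (23.1%, against 14.2% of the autosomal peaks).

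**Figure D1:**
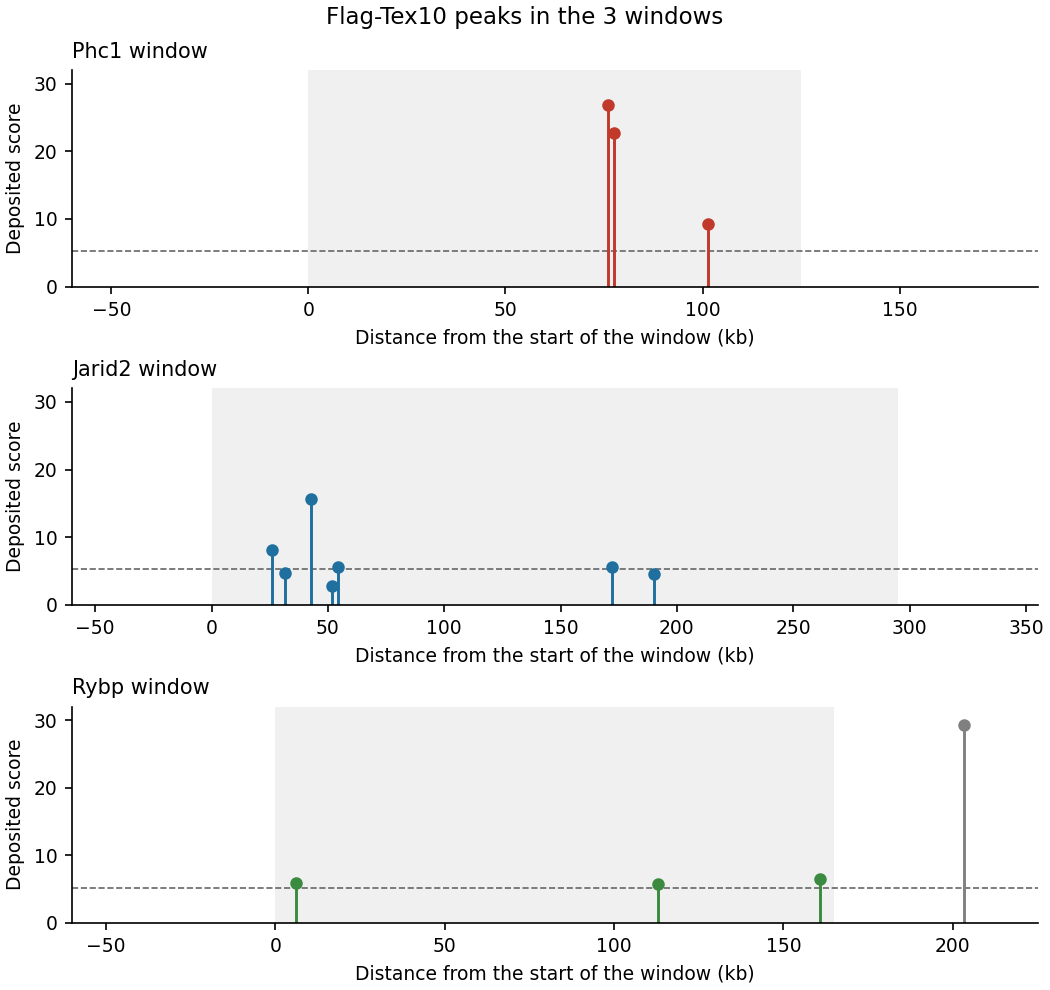
Each panel is 1 window (grey) with 60 kb on either side; the horizontal axis is the distance from the start of the window in kb, and each stem is 1 peak with its deposited score on the vertical axis. The dashed line is the median score of all peaks, 5.22. The 2 strong Phc1 peaks stand side by side, 5 of the 7 Jarid2 peaks lie together, and the strongest peak near Rybp (grey, 29.3) lies outside its window.

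Promoter letters are shown for the genes with the strongest and the most peaks, with each CpG in capitals, since CpG-rich promoters are where Polycomb complexes are mostly found in mammals. RefSeq (GRCm38.p6) gave a promoter, from 250 bases before to 50 after a start, for 2 of the 3 genes: 1 for Phc1 and 2 for Jarid2. These positions belong to another build than the mm9 peaks and cannot be set against them. The letters are therefore background on the genes, and whether a peak covers any of them was not analysed here. The Phc1 promoter is chr6:122340178-122340477, minus strand, and the upstream Jarid2 promoter is chr13:44730524-44730823, plus strand.
Phc1: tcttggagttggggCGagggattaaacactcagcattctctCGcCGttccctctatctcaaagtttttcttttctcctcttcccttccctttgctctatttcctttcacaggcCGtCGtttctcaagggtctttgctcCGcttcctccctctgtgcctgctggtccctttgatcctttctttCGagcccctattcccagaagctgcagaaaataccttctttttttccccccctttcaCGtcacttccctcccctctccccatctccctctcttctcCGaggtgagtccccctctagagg
Jarid2: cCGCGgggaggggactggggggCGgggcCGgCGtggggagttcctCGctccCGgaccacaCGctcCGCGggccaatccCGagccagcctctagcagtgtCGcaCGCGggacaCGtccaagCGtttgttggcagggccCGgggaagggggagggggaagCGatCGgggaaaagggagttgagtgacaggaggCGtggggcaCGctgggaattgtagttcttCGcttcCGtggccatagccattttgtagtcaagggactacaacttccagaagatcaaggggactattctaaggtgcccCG

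The Phc1 promoter holds 9 CpG and is 52.0% G or C, close to the medians of 7 and 52.7% over the 32851 promoters of the table. On the strand shown, 72.3% of its bases are C or T, against a median of 49.7%. Both Jarid2 promoters are richer, with 24 and 23 CpG and 64.3% and 62.7% G or C, and 20.0% and 21.5% of all promoters hold as many CpG or more. Matches were sought on both strands for an octamer (ATTTGCAT), a SOX motif (ACAATG), an ESRRB motif (TCAAGGTCA), a KLF motif (GGGTGTGG) and an E-box (CACGTG). None of the 3 promoters held any of these letters, which 1.74%, 12.6%, 0.423%, 3.56% and 7.15% of all promoters hold.

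Phc1 held the strongest peaks of the 3 windows. The highest spanned 122290582 to 122291659 on chromosome 6, was 1078 bp wide and scored 26.8, which ranked it 143 in the list (2.76% of peaks scored at least as high). Only 539 bp further lay the next, 122292199 to 122292715, 517 bp wide with a score of 22.7 (rank 174). The last peak lay 23.6 kb beyond these, at 122316335 to 122316587. It was 253 bp wide and scored 9.25 (rank 873), and 9 other peaks of the list carried exactly this score. On chromosome 6, which held 240 peaks, these 3 ranked 12, 14 and 39 by score.

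The strongest Phc1 peak was also the widest peak of chromosome 6. In the whole list 16 peaks (0.308%) were at least as wide. Among the 174 peaks that scored at least as high as the second Phc1 peak, the median width was 449 bp, and 8 were as wide as 1078 bp or wider. Both strong Phc1 peaks were thus wider than the median of 449 bp, the second, at 517 bp, by much less than the first. In the plot of width against score the last Phc1 peak lies near the narrow end.

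**Figure D2:**
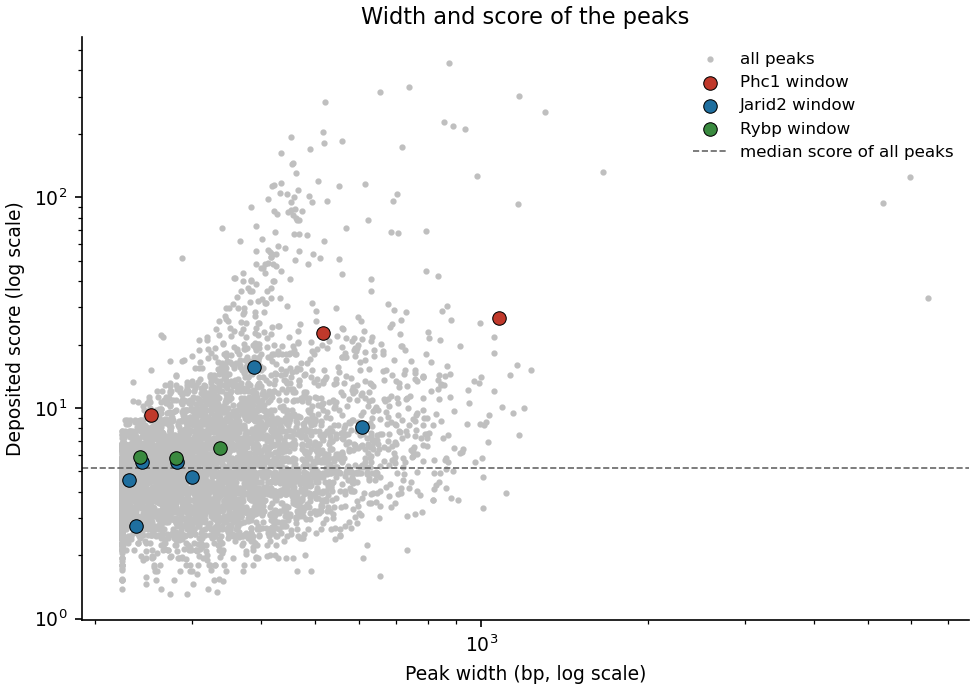
Each grey point is 1 of the 5189 peaks, with its width in bp (log scale) on the horizontal axis and its deposited score (log scale) on the vertical axis; coloured points are the 13 members and the dashed line is the median score. The 2 strong Phc1 peaks sit at 1078 and 517 bp, and the Rybp peaks sit close to the median score.

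When peaks less than 12500 bp apart were joined, the distance in common use for super-enhancers, the 2 strong Phc1 peaks formed a pair 2.13 kb long, of which peaks covered 74.7%. The list had 470 such pairs. The weaker peak scored 22.7 or more in 1 of them (0.213%), which was this pair. The highest weaker score among the other pairs was 18.0, and the median weaker score of all pairs was 3.90. What set the pair apart was the weaker partner: 13 of the 470 pairs had a stronger peak of at least 26.8. Of all 631 stretches of 2 or more peaks, 3 others, each of at least 3 peaks, held 2 or more peaks with such scores. This property was looked up after the values of the pair had been seen. Gaps as short as 539 bp were common in pairs (128 of 470). The pair also rests on the joining distance: with 25 kb, the largest Phc1 stretch held 3 peaks. Its standing among pairs was not analysed at other distances.

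Jarid2 had the most peaks of the 3 windows, in the longest of them. Of its 7 peaks, 5 lay within 28.9 kb (44800573 to 44829466 on chromosome 13) and formed 1 stretch. In order along the chromosome they scored 8.12, 4.71, 15.6, 2.76 and 5.54. The strongest, 44817548 to 44817935, was 388 bp wide, ranked 325 in the list and was the 9th strongest of the 206 peaks on chromosome 13. The widest, 44800573 to 44801180, was 608 bp and ranked 1144. The other 3 ranked 3016, 4765 and 2356, so the stretch joined 1 strong peak, 1 of the upper quartile and 3 that were near or under the median. Gaps between the 5 were 5.30, 10.8, 8.65 and 2.40 kb.

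Of 4274 stretches in the list, 3643 were single peaks and 631 held 2 or more. By peaks, 70.2% were single, 18.1% lay in pairs and 11.6% in stretches of at least 3. For the 13 members these numbers were 6, 2 and 5. Stretches of at least 5 peaks, that of Jarid2 included, numbered 20 (0.468% of the 4274, which include the single peaks). Chromosome 13 had no other, and chromosome 6 had 0. Among the 20, which spanned 3.32 to 42.1 kb with a median of 19.2 kb, only 2 were longer than that of Jarid2. Its peaks were thinly spread and covered 6.15% of its length. In 18 of the other 19 a larger part was covered, and the median of the 20 was 14.1%. By highest score it stood 8th of 20, with 15.6 against a median of 13.0, and 12 of the 20, Jarid2 included, had a median score of at least 5.54. The call of a 5-peak stretch rests on the joining distance: with 5 kb, its largest stretch held 2 peaks.

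**Figure D3:**
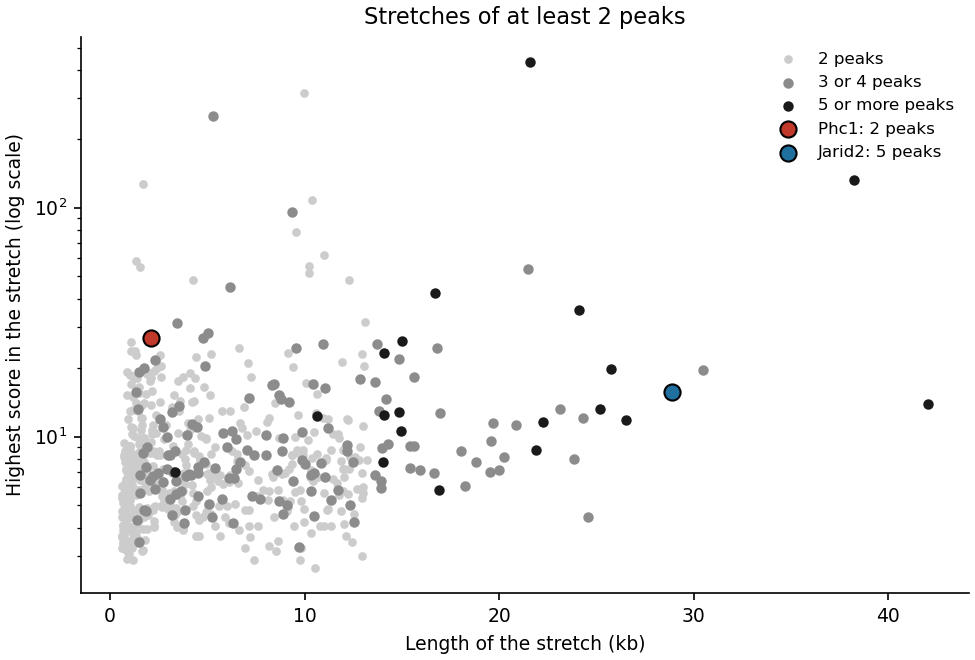
Each point is a stretch of at least 2 peaks lying less than 12500 bp apart, with its length in kb on the horizontal axis and the highest score in it on a log axis; shades give the number of peaks. The Jarid2 stretch (5 peaks, 28.9 kb) is among the longest, and the Phc1 pair (2.13 kb) is short and among the stronger pairs.

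The other 2 Jarid2 peaks were single. Peak 6, at 44946865 to 44947146, lay 117 kb beyond the stretch, was 282 bp wide and scored 5.54, exactly the value of peak 5 and shared with 33 other peaks of the list in all. Peak 7, at 44964944 to 44965174, followed after 17.8 kb, was 231 bp wide and scored 4.56. All 7 lay within 165 kb, and outside them the chromosome was bare for a long way: the nearest other peaks were 686 kb before and 1227 kb after. Of 5101 gaps between neighbouring autosomal peaks, 17.4% and 9.88% were at least as long as these, and the median gap was 140 kb.

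At Rybp, 3 single peaks of nearly equal score were spread over 155 kb. They lay on chromosome 6 at 100130908 to 100131148 (241 bp, score 5.84), 100237861 to 100238140 (280 bp, score 5.82) and 100285495 to 100285831 (337 bp, score 6.47). Their ranks were 2070, 2098 and 1811, all slightly above the median of the list. Gaps of 107 and 47.4 kb separated them, so none was joined to another. Each shared its exact score with other peaks of the list, 15, 95 and 6 of them in turn.

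Just outside the Rybp window, 37.9 kb past its end, lay a peak stronger than any of the 13 members. It spanned 100327901 to 100328596, was 696 bp wide and scored 29.3 (rank 132). It was not counted, because the window was fixed by position, and which gene it belongs to was not analysed here. The outermost Rybp members lay near the edges of the window, 6.03 and 161 kb from its start. Phc1 and Jarid2 had no such neighbour as close. The nearest peaks beyond their windows were 218 kb away after Phc1 (score 2.99) and 661 kb away before Jarid2 (score 10.6). On the other sides the nearest were 792 kb before Phc1 (score 66.5, rank 63) and 1122 kb after Jarid2 (score 5.64).

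Many scores recurred exactly in the list. Among autosomal peaks, 82.5% had a score carried by at least 1 other peak. At Rybp this held for 3 of 3, at Jarid2 for 5 of 7 and at Phc1 for 1 of 3. The 4 members with a score of their own were the 2 strong Phc1 peaks, the strongest Jarid2 peak and the last Jarid2 peak.

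To set the numbers of peaks beside the rest of the genome, each of the 19 autosomes was divided into non-overlapping tiles as long as each window. The 3 Phc1 peaks were matched or exceeded by 1.91% of 19769 tiles, the 7 Jarid2 peaks by 0.454% of 8372 tiles and the 3 Rybp peaks by 2.82% of 14974 tiles. Most tiles were empty (82.5%, 67.9% and 78.3%). Among tiles with a peak the shares were 10.9%, 1.41% and 13.0%. Tiles were placed without regard to peaks, whereas the windows were set around genes with results in view, so these shares describe the loci and are not tests. The densities were 24.0 peaks per Mb in the Phc1 window, 23.7 in the Jarid2 window and 18.2 in the Rybp window, against 2.07 over the autosomes, 1.61 on chromosome 6 and 1.71 on chromosome 13.

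**Figure D4:**
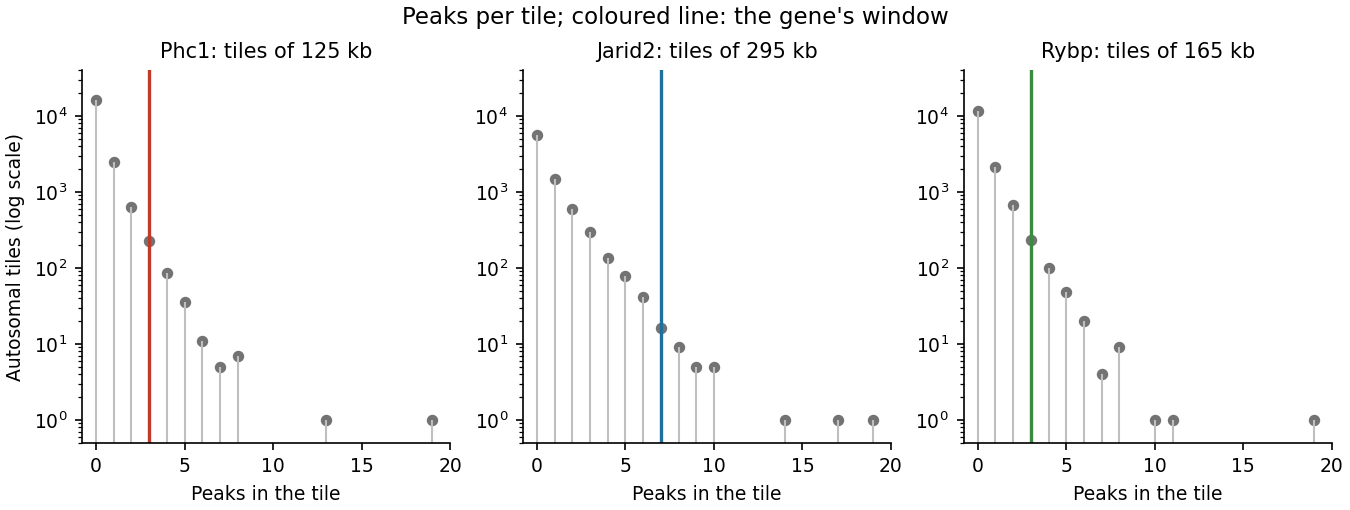
For tiles of 125, 295 and 165 kb, the horizontal axis is the number of peaks in a tile and the vertical axis the number of autosomal tiles (log scale); the coloured line marks the window of the gene. At least as many peaks as the window were held by 1.91% of tiles for Phc1 (3 peaks), 0.454% for Jarid2 (7 peaks) and 2.82% for Rybp (3 peaks).

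The highest Phc1 score was reached by 3.38% of the 3462 tiles of its length that held a peak, the highest Jarid2 score by 10.3% of 2690 and the highest Rybp score by 44.8% of 3242. In these settings the share was lowest for Phc1 by strength and for Jarid2 by number, but neither order held in all settings. With only peaks at or above the median score the share by number was 0.475% for Phc1 and 0.693% for Jarid2, and with only peaks scoring at least 10 it was 0.243% and 7.42%. With the windows widened by 50 kb on each side, which takes in the peak beyond Rybp, the share by strength was 3.94% for Phc1 and 3.72% for Rybp. The median scores were 22.7 at Phc1, 5.54 at Jarid2 and 5.84 at Rybp.

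In the RefSeq gene order the protein-coding neighbours are M6pr and Rimklb for Phc1, Cd83 and Dtnbp1 for Jarid2, and Prok2 and Shq1 for Rybp. Which gene each peak belongs to, and whether it lies at a start, in an exon or in an intron, was not analysed here, because no mm9 annotation was used. Peaks at the other PRC1 and PRC2 genes were not analysed here for the same reason.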

How the data were processed

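The score of each peak was deposited by the authors in a headerless list of chromosome, start, end, name and score for the Flag library. Per the submitters' processing notes, the build was mm9, and bedtools 2.18.1, SAMtools 0.1.19, Bowtie 1.0.0 and FastQC 0.10.1 are named without a role. The peak caller, its control and threshold are not given in the sources used here. No reads were counted per peak, so depth is unknown. A deeper library would yield more peaks at the same enrichment.

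Starts are given 1-based. Peaks overlapping a window by at least 1 base were taken, ranked by score (ties share the best rank) and joined when less than 12500 bp apart. Full autosomal tiles of each window's length came from mm9 lengths in GenomeInfoDb 1.38.1 (R 4.3.3), with assembly gaps left in. Python 3.11.15, numpy 2.4.6, pandas 2.3.3, scipy 1.17.1 and matplotlib 3.10.9 were used. The counting was tested on simulated lists. Members, windows and lists were chosen with earlier results of these data known. The naming rule was every peak of the 3 windows; the peak beyond the Rybp window was named after its value was seen. Alternatives changed windows, thresholds, joining and tiles.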

Additional observations from a re-analysis of the deposited data

How the results depend on the processing

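Of 64 alternative values, 36 stayed close to the reported ones and 28 moved, most of them shares of tiles. The limits were looser for some values than for others. At Phc1, 2 peaks in place of 3 was called close, as was a median score of 16.0 in place of 22.7. A share of 1.64% in place of 1.91% was called moved. The split is therefore no measure of how robust the results are. The number of Phc1 peaks stayed at 2 or 3 throughout, but joining under 500 bp could not merge the 2 strong ones, 539 bp apart. Jarid2 kept 7 peaks in all windows tried, but 4 with only peaks at or above the median score and 1 with only peaks scoring at least 10. Rybp had 1 peak with the window narrowed by 25 kb on each side and 0 with only peaks scoring at least 10, where no share of tiles could be given. The share of tiles with at least as many peaks, in the order Phc1, Jarid2 and Rybp, was 0.475%, 0.693% and 0.735% with only peaks at or above the median score, and 1.64%, 0.323% and 2.54% with peaks under 500 bp apart joined. It was 10.9%, 1.41% and 13.0% among tiles with a peak. With the window narrowed it was 2.75%, 0.327% and 16.3%. With the window widened by 50 kb it was 4.85% for Phc1 and 1.02% for Jarid2. With only peaks scoring at least 10 it was 0.243% for Phc1 and 7.42% for Jarid2. On the gene's own chromosome it was 1.51% for Phc1 and 1.77% for Rybp. For the strongest peak, score times width, which depends on the unknown scale of the score, gave 1.50% for Phc1 and 13.8% for Jarid2. Widening the Rybp window, an alternative chosen after seeing the data, took in the peak scoring 29.3 and gave 3.72% in place of 44.8%, against 3.94% for the widened Phc1 window. With 5 kb as the joining distance the largest Jarid2 stretch held 2 peaks, and the list had 13 stretches of at least 5 peaks. With 25 kb these were 5 and 36. The largest Phc1 stretch held 2 peaks with 5 kb and 3 with 25 kb. No paired analysis was possible because the groups have no replicates. Peaks under the threshold of the list are not in it, and depth sets where that lies.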
